A study of Mus musculus with 6 samples.

Results

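Expression of 38 genes of glucose transport, glycolysis, lactate export and the response to low oxygen was followed in mouse adaptive regulatory T cells (aTreg) with and without BMPR1a, through which cells sense bone morphogenetic proteins. The genes were taken by name: 2 glucose transporters, 16 glycolytic enzymes and regulators, 4 genes that decide the fate of pyruvate, 2 lactate transporters, 5 genes of the hypoxia-inducible factor (HIF) and its oxygen sensors, 8 HIF target genes and Myc. All 38 were among the 25759 gene identifiers of the table, and all 38 passed the filter on low values, a mean of at least 1 FPKM over the 6 libraries that left 13413 genes in all. The 3 wild type (WT) libraries came from C57BL/6 mice and the 3 BMPR1a-deficient libraries from C57BL/6 mice in which a Cre recombinase under Cd4 control removes the receptor. Mice of both groups carried a green fluorescent reporter of Foxp3, the transcription factor of regulatory T cells, and were 8 to 12 weeks old. Cells of lymph nodes and spleen were stimulated for 3 days with IL-2 (10 ng/ml), TGF-beta (3 ng/ml) and the mitogen concanavalin A (2 µg/ml), after which reporter-positive CD4+ cells were sorted by flow cytometry. Cd4-driven Cre acts in T cells before they divide into CD4 and CD8 lineages, so the receptor was not removed in aTreg only, and the sort did not tell apart cells that gained Foxp3 in culture from cells that had it before. The oxygen level of the cultures was not given in the sources used here.

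Glycolysis turns glucose into pyruvate in a chain of cytosolic enzymes, and activated T cells run it at a high rate and export much of the pyruvate as lactate. HIF-1 is a transcription factor made of HIF-1α, which prolyl hydroxylases mark for destruction through the VHL protein when oxygen is present, and its stable partner ARNT. When HIF-1α accumulates it raises transcription of glucose transporters, of most glycolytic enzymes, of the pyruvate dehydrogenase kinase PDK1 and of genes of mitophagy, collagen modification and blood vessel growth. In T cells the transcription factor Myc drives many of the same enzymes after activation, and in regulatory T cells the balance between glycolysis and respiration has been linked to Foxp3 expression and lineage stability.

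The table gives FPKM, fragment counts scaled to transcript length and library size, and no counts. The smallest steps of the values put the depth at about 29600000 to 37800000 fragments in the WT libraries and 31700000 to 36400000 in the BMPR1a-deficient ones. Bmpr1a itself was at 1.39, 2.34 and 1.31 FPKM in the WT libraries and 0.439, 0.7204 and 0.691 in the deficient ones, with a log2 fold change of -0.71 (limma adjusted p = 0.183). BMPR1a-deficient replicate 1 stood apart: its 13 mitochondrially encoded messenger RNAs summed to 5335 FPKM, against 44657 and 44713 in the other BMPR1a-deficient libraries and 50442 to 53789 in WT. The 7 CD4 regulatory T cell markers (Cd4, Cd3e, Cd3g, Foxp3, Il2ra, Ctla4 and Trac) were above 1 FPKM in all 6 libraries. Ctla4 was at 238, 275 and 249 FPKM in WT and 103, 204 and 203 in the deficient libraries (limma adjusted p = 0.361). Cd3g also lay below WT in every deficient library (limma adjusted p = 0.571). The others overlapped between groups, with higher deficient means for Cd4, Foxp3 and Il2ra and lower ones for Cd3e and Trac. Of 8 myeloid markers, 3 (Lyz2, Itgam and Cd68) were above 1 FPKM in every library, and the sum of the 8 ran from 35.7 to 159 FPKM in WT and from 15.6 to 137 in BMPR1a-deficient cells, highest in WT replicate 1 and lowest in BMPR1a-deficient replicate 1. The B cell markers Ms4a1, Cd79a, Cd79b, Blk and Ighm were above 1 FPKM in every library, and Ighm, the most abundant of them, was at 438 to 467 FPKM in WT and 297 to 449.8 in BMPR1a-deficient cells. The 2 CD8 genes, Cd8a and Cd8b1, were above 1 FPKM in every library and summed to 32.0 to 41.8 FPKM in WT and 37.9 to 68.4 in BMPR1a-deficient cells. Cd8a was at 11.7, 9.56 and 8.80 FPKM in WT and 13.8, 17.2 and 29.1 in the deficient libraries, with no overlap. Its log2 fold change was 0.87 (limma adjusted p = 0.236), and Cd8b1 overlapped between groups. Erythroid and platelet markers did not reach a sum of 1 FPKM in any library, dendritic cell markers summed to 1.21 to 1.79 FPKM, NK cell markers to 3.09 to 9.36 (mostly Eomes) and stromal and endothelial markers to 40.02 to 57.2 (mostly Pecam1). No marker of these lists was at 0 in every library. The part that these differences between libraries had in the results was not tested. Whether each library had its own animal or culture is not stated in the labels, so the p-values measure only how far these samples spread, and that spread may be technical.

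No gene of the 38 passed the threshold of an adjusted p under 0.05 over the 13413 genes tested (limma, 0 higher and 0 lower). The background was 0.746% of tested genes called higher and 0.321% called lower (100 and 43 genes, or 88 and 70 with quantile normalization). At an unadjusted p under 0.05 in limma, 9 of the 38 were lower and 2 were higher in BMPR1a-deficient cells, where 5.87% and 9.29% of tested genes were. The differences lay mostly to the lower side: 29 of 38 log2 fold changes were negative (76.3%), against 44.5% of the tested genes, and the median was -0.23 against 0.038. For 13 genes every BMPR1a-deficient library lay below every WT library, which held for 10.4% of tested genes, and for 4 every one lay above, which held for 15.9%. Without WT replicate 1 these counts were 21 (background 15.6%) and 6 (20.1%), and without BMPR1a-deficient replicate 1 they were 22 (13.8%) and 6 (28.1%). With upper-quartile scaling 15 were below (background 13.4%) and 2 above (12.7%). In bulk RNA, fewer cells of one kind and less RNA per cell cannot be told apart. Fold changes are differences in log2(FPKM + 1), with WT subtracted from BMPR1a-deficient, so a change of a gene with low values is understated.

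**Figure D1:**
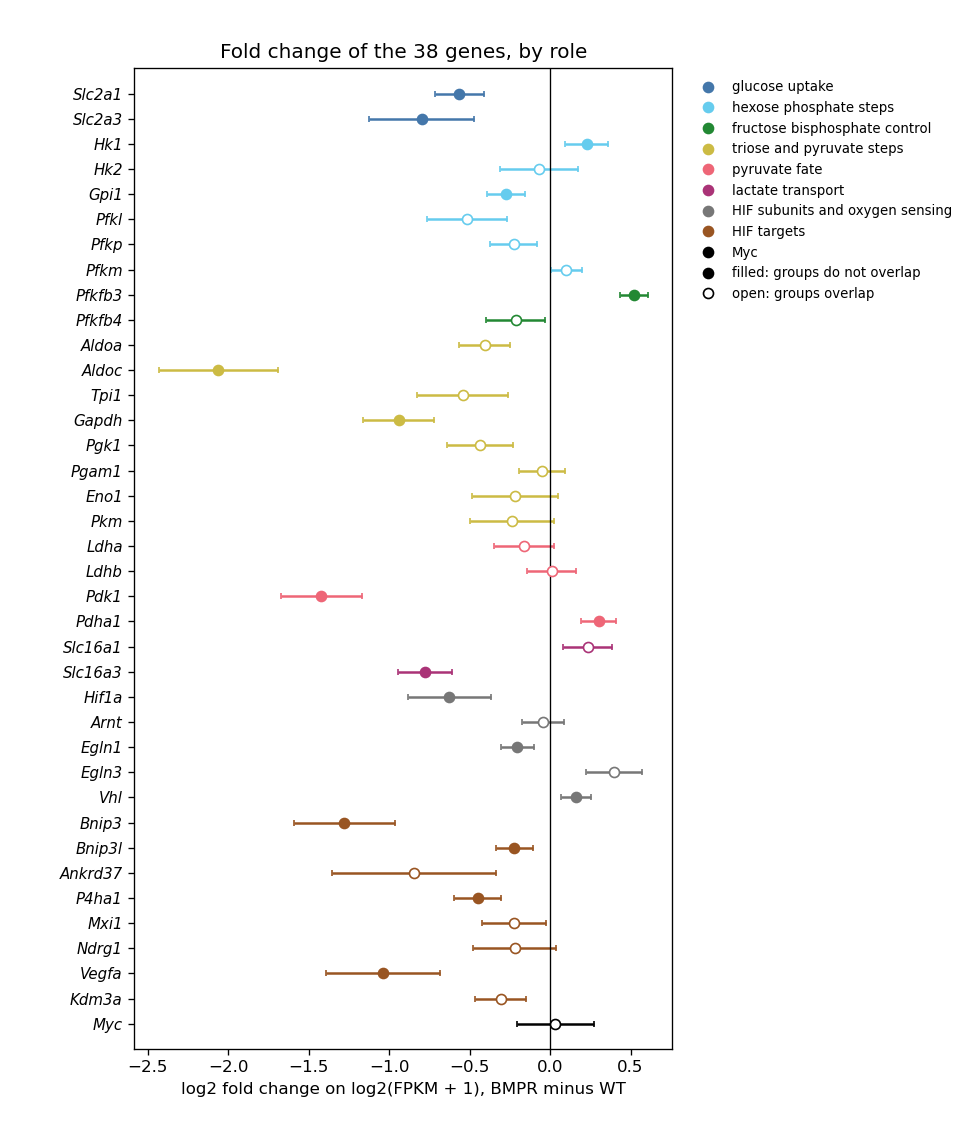
Log2 fold change of each of the 38 genes (x axis, BMPR1a-deficient minus WT on log2(FPKM + 1)) with its standard error (bar), coloured by role, n = 3 libraries per group. Filled points are the 13 lower and 4 higher genes whose groups did not overlap, and Aldoc, Pdk1 and Bnip3 lie farthest to the left.

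Promoter windows of 4 of these genes are shown because HIF binds a short core sequence and many of the 38 are known HIF targets. They are Pdk1, Bnip3 and Slc16a3, whose deficient libraries all lay below WT, and the abundant Ldha, whose groups overlapped, and were picked after their values were seen. Each line gives the 250 bases before the transcription start, 5′ to 3′ on the gene's strand, from the RefSeq promoter table of GRCm38.p6, with capitals at the letters ACGTG or GCGTG, the HIF core, on either strand. The windows are chr2:71872974-71873223, plus strand (Pdk1), chr7:138909507-138909756, minus strand (Bnip3), chr11:120948817-120949066, plus strand (Slc16a3) and chr7:46845554-46845803, plus strand (Ldha).
Pdk1: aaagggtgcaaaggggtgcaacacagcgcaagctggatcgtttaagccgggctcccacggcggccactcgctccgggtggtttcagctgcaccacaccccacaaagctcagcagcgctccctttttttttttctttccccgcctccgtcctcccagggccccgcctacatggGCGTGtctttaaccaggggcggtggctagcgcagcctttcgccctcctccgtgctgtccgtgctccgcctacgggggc
Bnip3: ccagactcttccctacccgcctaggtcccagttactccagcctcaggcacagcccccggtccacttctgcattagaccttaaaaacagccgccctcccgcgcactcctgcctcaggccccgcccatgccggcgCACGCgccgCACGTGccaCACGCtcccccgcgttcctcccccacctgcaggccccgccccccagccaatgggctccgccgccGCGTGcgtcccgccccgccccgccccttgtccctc
Slc16a3: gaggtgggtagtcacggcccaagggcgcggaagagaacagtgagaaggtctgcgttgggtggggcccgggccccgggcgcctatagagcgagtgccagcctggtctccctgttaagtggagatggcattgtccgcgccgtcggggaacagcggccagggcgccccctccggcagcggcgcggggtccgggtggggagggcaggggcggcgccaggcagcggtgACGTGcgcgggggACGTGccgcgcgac
Ldha: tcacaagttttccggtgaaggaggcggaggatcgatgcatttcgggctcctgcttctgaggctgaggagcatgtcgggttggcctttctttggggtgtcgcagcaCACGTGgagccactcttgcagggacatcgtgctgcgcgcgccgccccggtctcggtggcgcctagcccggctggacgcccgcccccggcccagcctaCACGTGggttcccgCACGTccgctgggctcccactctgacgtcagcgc
The RefSeq start behind the Ldha window lies 4329 bases from the start of the GENCODE gene, that of Slc16a3 587 bases, that of Bnip3 13 bases, and that of Pdk1 coincides with it. Aldoc and Pfkfb3 (no sequence shown) had 1 match each upstream in the window nearest the GENCODE gene start. In the stretches shown, Pdk1 had 1 match, Slc16a3 had 2, and Bnip3 and Ldha had 5 each. Some of those matches overlap, since the E-box CACGTG holds ACGTG on both strands. Windows of 300 bases, 250 before and 50 after the start, were found for 34 of the 38 genes; Slc2a3, Ndrg1, Bnip3l and Myc had none in the table. Of these 34 genes, 22 had ACGTG on either strand of a window (64.7%), against 29.9% of the 8505 tested genes with a window and 21.8% of all 27025 genes with one. GCGTG was in windows of 23 (67.6%), against 56.7% and 35.1%, and the E-box in 6 (17.6%), against 12.2% and 8.09%. The 34 genes had 52 windows and the 8505 tested genes 10818, and more windows per gene give more chances of a match. Per window, GCGTG was in 53.85% against 51.0% in tested genes and the E-box in 11.54% against 10.26%, which are small differences. ACGTG was in 26 of the 52 windows, against 2813 of the 10818. The median GC content was 62.2% in the windows of the 34 genes and 60.7% in those of tested genes. Over all windows of a gene, 31 of the 34 had a HIF core of either form (91.2%), against 68.2% of tested genes. Per window the shares were 76.92% and 62.51%. The next counts use only the 250 bases upstream in the 1 window per gene nearest the GENCODE gene start. The 26 genes with a HIF core there had a median log2 fold change of -0.22, and the 8 without one there -0.26. Of the genes whose BMPR1a-deficient libraries all lay below WT, 9 of 11 with a window had the core there, as did 2 of the 4 whose deficient libraries all lay above and 15 of 19 whose groups overlapped. A match of these letters is a description and not a binding site.

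Both glucose transporters had lower values without the receptor. Slc2a1 (chromosome 4, 119108711 to 119137983 in GRCm38), which encodes the widely expressed transporter GLUT1, was at 14.3, 17.9 and 17.8 FPKM in the WT libraries and 8.93, 11.8 and 12.2 in the deficient ones, with a log2 fold change of -0.56 (SE 0.153, limma adjusted p = 0.181). Slc2a3, which encodes the high-affinity transporter GLUT3, was at 14.6, 19.2 and 25.8 FPKM in the WT libraries and 6.503, 13.2 and 13.99 in the deficient ones, with a log2 fold change of -0.80 (SE 0.328, limma adjusted p = 0.331). Neither pair of groups overlapped, and BMPR1a-deficient replicate 1 was the lowest library for both genes. Each transporter supplied about equal parts of their summed FPKM, with Slc2a1 at 40.8% to 49.5% in WT and 46.6% to 57.9% in BMPR1a-deficient cells.

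The hexose phosphate enzymes differed in direction. Hk1 was the main hexokinase, the enzyme that traps glucose in the cell, at 62.96, 64.5 and 57.2 FPKM in the WT libraries and 84.6, 66.3 and 66.7 in the deficient ones. Hk2, the hexokinase usually raised by HIF and Myc, stayed between 1.98 and 3.81 FPKM, and Hk1 made up 94.4% to 97.0% of the 2 in every library. Every BMPR1a-deficient library was above WT for Hk1, with a log2 fold change of 0.23 (SE 0.131, limma adjusted p = 0.4599). Gpi1, glucose-6-phosphate isomerase, was at 315, 348 and 379.5 FPKM in the WT libraries and 293, 283 and 282 in the deficient ones, a small difference of -0.28 (SE 0.118, limma adjusted p = 0.346) with no overlap. Phosphofructokinase, the committed step of the pathway, was mostly its platelet form: Pfkp made up 71.9% to 77.8% of the summed FPKM of Pfkl, Pfkp and Pfkm. Pfkp was at 91.1 ± 13.3 FPKM in the WT libraries and 77.5 ± 8.33 in the deficient ones (SD, n = 3), Pfkl at 23.2 ± 6.75 FPKM in the WT libraries and 15.6 ± 2.89 in the deficient ones and Pfkm at 8.23 ± 0.201 FPKM in the WT libraries and 8.92 ± 0.881 in the deficient ones, and the groups overlapped for all 3 genes.

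The strongest difference towards higher values was in the control of that step. Pfkfb3 (chromosome 2, 11471433 to 11554077 in GRCm38) encodes the kinase that makes fructose 2,6-bisphosphate, the main activator of phosphofructokinase. It was at 19.7, 17.6 and 18.01 FPKM in the WT libraries and 27.4, 26.3 and 26.7 in the deficient ones, with a log2 fold change of 0.52 (SE 0.0868, limma adjusted p = 0.0647). The 3 deficient libraries lay within 1.16 FPKM of each other and above all WT libraries, with a mean at 145% of that in WT. Pfkfb4, a second gene for such an enzyme, was at 3.58, 2.68 and 2.61 FPKM in the WT libraries and 1.88, 2.23 and 3.19 in the deficient ones, with overlapping groups and a log2 fold change of -0.21 (SE 0.184, limma adjusted p = 0.585). Pfkfb3 supplied 67.0% to 67.4% of the FPKM of the 4 Pfkfb genes in WT and 71.9% to 76.9% in BMPR1a-deficient cells.

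From aldolase to pyruvate kinase the 8 genes of the list all had negative log2 fold changes. That of Pgam1 turned to 0.036 with sample weights and to 0.074 without WT replicate 2. The 8 fold changes differed in size and in overlap. The largest was that of Aldoc (chromosome 11, 78322968 to 78327781 in GRCm38), the minor aldolase here, at 5.98, 13.8 and 16.2 FPKM in the WT libraries and 1.26, 2.14 and 2.44 in the deficient ones, with a log2 fold change of -2.06 (SE 0.3698, limma adjusted p = 0.0749). The mean without the receptor was 16.2% of that in WT, and even WT replicate 1, the lowest of WT, was 2.46 times the highest deficient library. Aldoc made up 1.85% to 3.97% of aldolase FPKM in WT and 0.394% to 0.881% in BMPR1a-deficient cells, the rest being Aldoa. Aldoa was at 318, 427 and 393 FPKM in the WT libraries and 319, 261 and 274 in the deficient ones, with a log2 fold change of -0.41 (SE 0.1598, limma adjusted p = 0.317), and only BMPR1a-deficient replicate 1 reached the WT range, just above WT replicate 1. The triose phosphate isomerase gene Tpi1 was at 113, 199 and 175 FPKM in the WT libraries and 147, 92.6 and 92.6 in the deficient ones, and phosphoglycerate kinase Pgk1 at 198, 309 and 276 FPKM in the WT libraries and 221, 172 and 179.8 in the deficient ones. For Tpi1 and Pgk1 the deficient replicates 2 and 3 lay below all WT libraries and replicate 1 lay inside the WT range. Eno1, which encodes enolase 1, was at 287, 420.1 and 374 FPKM in the WT libraries and 436, 265 and 246 in the deficient ones. Pkm, which encodes the muscle-type pyruvate kinase, was at 519, 702 and 621 FPKM in the WT libraries and 744, 439 and 422 in the deficient ones. In replicate 1 both were above every WT library, and in replicates 2 and 3 both were below. Pgam1, phosphoglycerate mutase, was at 73.3 ± 12.1 FPKM in the WT libraries and 70.2 ± 4.48 in the deficient ones (SD, n = 3), the smallest difference of the 8 at -0.052 (SE 0.142, limma adjusted p = 0.872). Summed from hexokinase to pyruvate kinase, 14 enzyme genes reached 2368, 3330 and 2872 FPKM in the WT libraries and 2637, 1998 and 1982 in the deficient ones, so the sums overlapped through replicate 1.

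Gapdh, glyceraldehyde-3-phosphate dehydrogenase, was lowest in BMPR1a-deficient replicate 1, where Eno1 and Pkm were highest. It was at 379.6, 613 and 387 FPKM in the WT libraries and 207, 248 and 245 in the deficient ones, with a log2 fold change of -0.94 (SE 0.2196, limma adjusted p = 0.136) and no overlap. Gapdh has many processed pseudogenes, so its value can depend on how reads were shared out. A comparison of transcript sequences found 78 other genes with a stretch of at least 200 bases at 95% identity or more, of which 51 were in the table and 35 had a mean of at least 1 FPKM. Together these 51 were listed at 631, 677 and 634 FPKM in the WT libraries and 374, 523 and 521 in the deficient ones, which is more than Gapdh itself in every library. With the copies added, Gapdh reached 1010, 1290 and 1021 FPKM in the WT libraries and 581, 771 and 766 in the deficient ones. The groups still did not overlap, and the log2 fold change was -0.65 (SE 0.185, limma adjusted p = 0.198) in place of -0.94. Near-identical genes in the table were also found for Pgk1 (2, with 154 FPKM together in WT), Eno1 (2, with 123 FPKM) and Pgam1 (1, with 47.8 FPKM). Adding them gave log2 fold changes of -0.43, -0.14 and -0.035. For Bnip3l, Gpi1, Bnip3, Ldhb and Ldha the copies added between 0.328% and 23.2% of the gene's own mean. How the reads of such copies were assigned is not given in the sources used here, and FPKM of genes of unequal length add up only approximately.

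**Figure D2:**
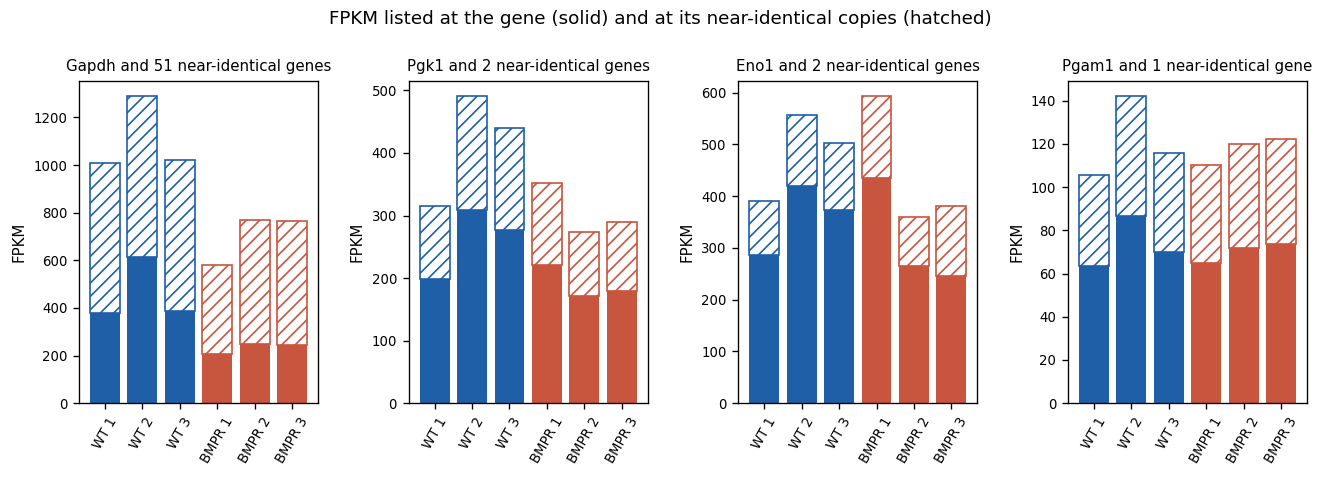
FPKM listed at 4 glycolytic genes (solid bars) and summed over their near-identical copies in the table (hatched bars) for each of the 6 libraries, WT in blue and BMPR1a-deficient in red. The hatched part is larger than the solid part for Gapdh in all libraries, and the Gapdh totals of BMPR1a-deficient cells, 581 to 771 FPKM, stay below those of WT, 1010 to 1290.

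At the branch point after pyruvate, Pdk1 had lower values and its target Pdha1 higher values in all deficient libraries, and neither passed the threshold. Pdk1 (chromosome 2, 71873224 to 71903858 in GRCm38), a mitochondrial kinase that inactivates pyruvate dehydrogenase and so slows the making of acetyl-CoA from pyruvate, was at 43.6, 70.9 and 84.2 FPKM in the WT libraries and 20.6, 25.6 and 23.6 in the deficient ones, with a log2 fold change of -1.42 (SE 0.252, limma adjusted p = 0.0725). The 3 deficient libraries were close together, and all lay under the lowest WT library, although WT itself spread 1.93-fold with replicate 1 lowest. Pdk1 made up 65.1% to 77.2% of the summed FPKM of the 4 pyruvate dehydrogenase kinase genes in WT and 46.0% to 48.0% in BMPR1a-deficient cells. Pdk1 and Aldoc passed the threshold without WT replicate 1 (limma adjusted p = 0.0360 and 0.0380) and when only genes above 0 in every library were tested (limma adjusted p = 0.0370 and 0.0365). Leaving out any other library raised the limma adjusted p, to between 0.1202 and 0.264 for Pdk1 and between 0.123 and 0.279 for Aldoc. Pdha1, the catalytic subunit of pyruvate dehydrogenase that Pdk1 phosphorylates, was at 77.1, 79.5 and 72.1 FPKM in the WT libraries and 105, 91.1 and 87.5 in the deficient ones, a log2 fold change of 0.30 (SE 0.1101, limma adjusted p = 0.294) with no overlap. Lactate dehydrogenase was almost all Ldha, at 711, 999.9 and 774 FPKM in the WT libraries and 846, 696 and 665 in the deficient ones, which was 97.5% to 98.5% of Ldha and Ldhb together. Its log2 fold change was -0.16 (SE 0.187, limma adjusted p = 0.684), and its sign turned with quantile normalization (0.10). Ldhb was at 15.3 ± 0.59 FPKM in the WT libraries and 15.5 ± 3.03 in the deficient ones (SD, n = 3), a log2 fold change of 0.0090 that turned to -0.033 with upper-quartile scaling and -0.021 with quantile normalization.

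The lactate transporters differed from each other. Slc16a3 (chromosome 11, 120948480 to 120960868 in GRCm38), which encodes MCT4, the exporter of highly glycolytic cells, was at 16.7, 23.4 and 24.2 FPKM in the WT libraries and 12.3, 13.1 and 10.6 in the deficient ones, with a log2 fold change of -0.78 (SE 0.167, limma adjusted p = 0.112) and no overlap. Slc16a1, which encodes MCT1, was at 8.64, 13.1 and 10.3 FPKM in the WT libraries and 12.9, 12.4 and 12.4 in the deficient ones, with overlapping groups and a log2 fold change of 0.23 (SE 0.151, limma adjusted p = 0.498). The share of Slc16a3 in the 2 transporters was 64.1% to 70.1% in WT and 46.1% to 51.2% in BMPR1a-deficient cells, and these ranges did not meet.

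**Figure D3:**
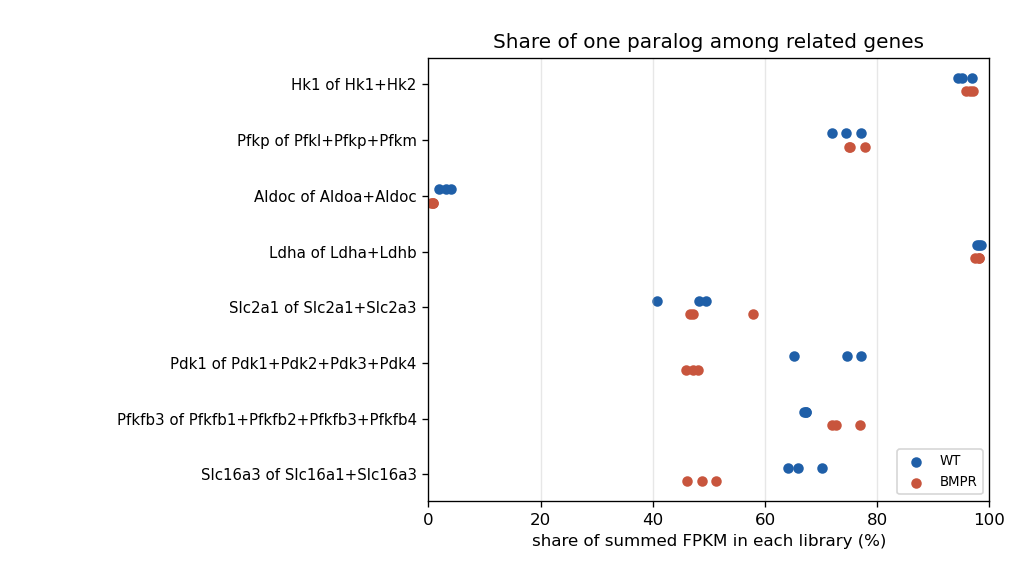
Share of 1 gene in the summed FPKM of related genes (x axis, percent), each point 1 library, WT in blue and BMPR1a-deficient in red, 3 per group. The shares of Pdk1, Slc16a3 and Aldoc are lower in all BMPR1a-deficient libraries and that of Pfkfb3 is higher, while those of Hk1, Pfkp, Ldha and Slc2a1 overlap.

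Of the HIF subunits, Hif1a (chromosome 12, 73901375 to 73947530 in GRCm38) was at 77.9, 86.4 and 80.3 FPKM in the WT libraries and 34.4, 61.4 and 68.1 in the deficient ones, with a log2 fold change of -0.63 (SE 0.2604, limma adjusted p = 0.336). The groups did not overlap, but replicate 1 was far below the other deficient libraries, and without it the log2 fold change was -0.33. Its partner Arnt was at 18.3 ± 1.01 FPKM in the WT libraries and 17.8 ± 2.78 in the deficient ones (SD, n = 3), with overlapping groups. Of the oxygen sensors, Egln1, which encodes the main HIF prolyl hydroxylase PHD2, was at 18.3, 20.5 and 22.6 FPKM in the WT libraries and 16.98, 17.7 and 18.1 in the deficient ones, a log2 fold change of -0.20 (SE 0.103, limma adjusted p = 0.408) with a gap of only 0.211 FPKM between the groups. Egln3, which encodes the hydroxylase PHD3 and is itself known as a HIF target, lay the other way at 7.35, 6.63 and 6.43 FPKM in the WT libraries and 7.297, 9.11 and 11.9 in the deficient ones, a log2 fold change of 0.40 (SE 0.174, limma adjusted p = 0.355). Vhl, which encodes the substrate receptor of the ubiquitin ligase, was at 11.2, 10.4 and 11.3 FPKM in the WT libraries and 13.1, 12.8 and 11.4 in the deficient ones, a log2 fold change of 0.16 (SE 0.0935, limma adjusted p = 0.462). For Egln3 the groups overlapped through replicate 1, and for Vhl they did not overlap, by a margin of 0.033 FPKM.

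All 8 genes listed as HIF targets had negative log2 fold changes, against 44.5% of tested genes, with a median of -0.38 against 0.038. The list was chosen with earlier results of these data known. It leaves out genes under other roles that HIF is also known to raise. These lay on both sides, as Pdk1 at -1.42 and Egln3 at 0.40. In 4 of the 8 every deficient library lay below every WT library, which held for 10.4% of tested genes. Bnip3 (chromosome 7, 138890836 to 138909519 in GRCm38), a mitophagy receptor, was at 7.101, 13.2 and 15.7 FPKM in the WT libraries and 2.91, 4.59 and 5.14 in the deficient ones, with a log2 fold change of -1.28 (SE 0.314, limma adjusted p = 0.1503). Vegfa, the vascular growth factor, was low in all libraries, at 1.19, 2.904 and 4.43 FPKM in the WT libraries and 0.412, 0.898 and 0.997 in the deficient ones, with a log2 fold change of -1.04 (SE 0.354, limma adjusted p = 0.268). Its lowest library rested on about 50 fragments by the estimated depth, and that of Bnip3 on about 180. P4ha1, a subunit of the collagen prolyl hydroxylase, was at 15.8, 21.1 and 22.96 FPKM in the WT libraries and 14.1, 14.4 and 13.98 in the deficient ones, with a log2 fold change of -0.45 (SE 0.146, limma adjusted p = 0.2498). Its deficient libraries lay within 0.431 FPKM of each other while WT spread from 15.8 to 23.0. Bnip3l, the relative of Bnip3 also called Nix, was at 80.5, 82.8 and 97.7 FPKM in the WT libraries and 72.7, 77.5 and 72.5 in the deficient ones, a log2 fold change of -0.22 (SE 0.112, limma adjusted p = 0.407). Ankrd37 had the largest SE of the 8 on the log2(FPKM + 1) scale, at 4.64, 9.08 and 15.8 FPKM in the WT libraries and 8.66, 3.52 and 2.76 in the deficient ones, so that the groups overlapped and the log2 fold change was -0.85 (SE 0.509, limma adjusted p = 0.469). The other targets also overlapped between groups. Mxi1, an antagonist of Myc, was at 3.73 ± 0.572 FPKM in the WT libraries and 3.1 ± 0.891 in the deficient ones (SD, n = 3). Ndrg1, a stress-induced gene, was at 11.6 ± 3.21 FPKM in the WT libraries and 9.72 ± 2.35 in the deficient ones, and Kdm3a, a histone H3 lysine 9 demethylase, at 25.4 ± 3.27 FPKM in the WT libraries and 20.4 ± 3.28 in the deficient ones.

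**Figure D4:**
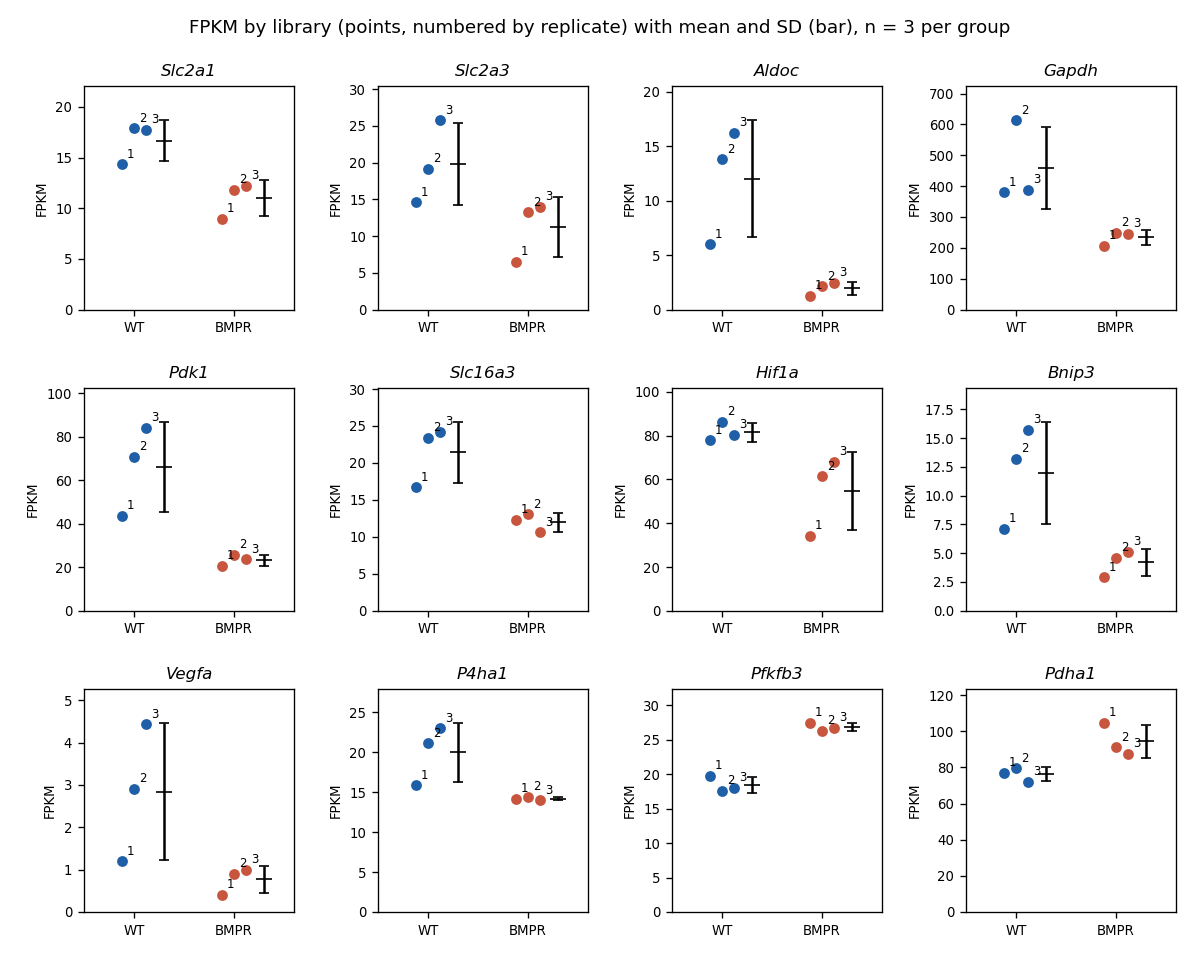
FPKM (y axis, from 0) of 12 genes in each library, WT in blue and BMPR1a-deficient in red, numbered by replicate, with the group mean and SD beside the points (n = 3). The 12 were picked from the 13 lower and 4 higher genes whose groups did not overlap, so no panel shows an overlap. BMPR1a-deficient libraries are lower in 10 panels and higher for Pfkfb3 and Pdha1. WT replicate 1 is the lowest WT library in all 10 panels with lower values.

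Myc, the other driver of glycolytic genes in activated T cells, was at 42.6, 46.2 and 42.7 FPKM in the WT libraries and 30.4, 56.6 and 52.01 in the deficient ones. The deficient libraries lay on both sides of WT, and the log2 fold change of 0.032 (SE 0.239, limma adjusted p = 0.954) turned to -0.013 with upper-quartile scaling.

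The genes also varied within each group. WT replicate 1 was the lowest WT library for 30 of the 38 genes (78.9%), against 39.4% of tested genes. The HIF targets averaged 0.42 below the WT mean in log2(FPKM + 1) in WT replicate 1 and 0.35 above it in WT replicate 3, while the deficient libraries averaged 0.69, 0.49 and 0.54 below. So the distance between WT replicates 1 and 3 was larger than the distance from WT replicate 1 to any deficient library. BMPR1a-deficient replicate 1 was the highest of its group for 17 genes, the lowest for 17 and in the middle for 4, or 10.5%, against 9.67% of tested genes. Of the 14 enzymes from hexokinase to pyruvate kinase, all but Aldoc, Gapdh and Pgam1 were highest there. Both glucose transporters, Aldoc, Gapdh, Pdk1, Hif1a, Bnip3, Vegfa and Myc were lowest there. Over all 38 genes the mean difference from WT was alike in the 3 deficient libraries, at -0.38, -0.34 and -0.35. The WT libraries were at -0.24, 0.12 and 0.12 on the same measure. So WT replicate 1 lay closer to the deficient libraries than to the other WT libraries. Mitochondrial transcripts, which also set BMPR1a-deficient replicate 1 apart, summed to 51151 FPKM in WT replicate 1, against 53789 and 50442 in the other WT libraries. The myeloid markers were highest in WT replicate 1 of all libraries, at a sum of 159 FPKM against 35.7 and 74.4 in the other WT libraries. The part of either measure in the lower values of WT replicate 1 was not tested.

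**Figure D5:**
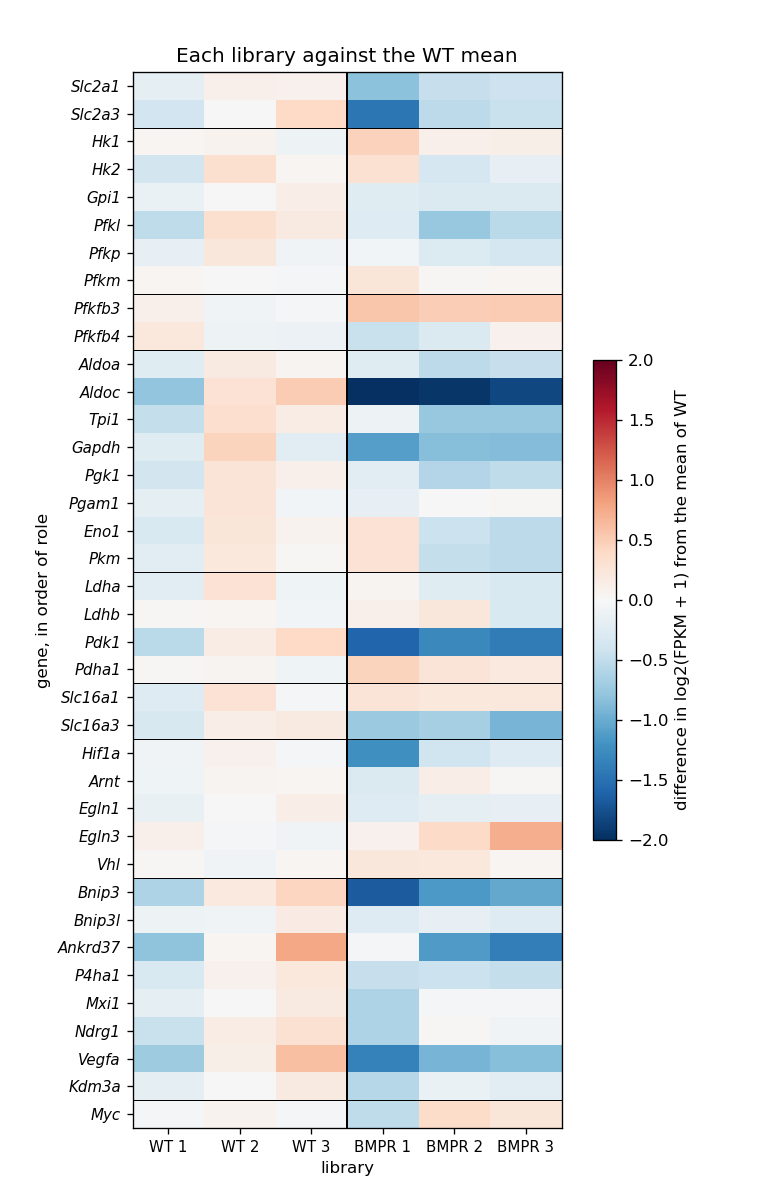
Difference of each library (columns) from the WT mean in log2(FPKM + 1) (colour, from -2 to 2) for each of the 38 genes (rows, in order of role, roles separated by lines). Lower values run through the BMPR1a-deficient columns for Slc2a1, Slc2a3, Slc16a3, Aldoc, Gapdh, Pdk1, Bnip3 and Vegfa, WT replicate 1 is bluer than the other WT columns for most genes, and BMPR1a-deficient replicate 1 differs from replicates 2 and 3 for Eno1, Pkm and Hif1a.

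FPKM is scaled to transcript length, so levels can also be set side by side between genes. In WT the mean was 828 FPKM for Ldha, 614 for Pkm, 459.8 for Gapdh, 379 for Aldoa, 360.2 for Eno1 and 347 for Gpi1. The WT libraries of Ldha all lay above those of Pkm (711 against 702 FPKM at the nearest), and from Pkm down to Gpi1 each gene overlapped the next. Pgk1 and Tpi1 followed at mean WT levels of 261 and 162 FPKM. This order depends on how reads of near-identical copies were counted: with the copies added, the mean WT level was 1107 FPKM for Gapdh, above Ldha at 830.4, and those of Eno1 (483) and Pgk1 (415) were above Aldoa. At the other end were Mxi1 (3.73 FPKM), Pfkfb4 (2.96), Hk2 (2.92) and Vegfa (2.84), again with overlapping libraries. Among HIF targets Bnip3l (87.0) was far above Bnip3 (12.0).

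The rest of the pathway was read from 7 further lists of 149 genes, of which 147 were found and 119 were tested, and 1 gene passed the threshold. That gene was Anxa2, which encodes the calcium-dependent membrane protein annexin A2, among 27 tested of 37 other genes known to be induced by hypoxia. Anxa2 was at 50.1, 67.9 and 58.2 FPKM in the WT libraries and 30.1, 30.4 and 29.7 in the deficient ones, and fell with a log2 fold change of -0.93 (SE 0.129, limma adjusted p = 0.04099). It lost the call in each of the 6 fits that left out 1 library (limma adjusted p = 0.0625 to 0.206) and without a filter on low values (limma adjusted p = 0.0529). The median over these 27 genes was 0.037, against 0.038 over all tested genes, and 14 of 27 log2 fold changes were positive. Rbpj, the Notch pathway transcription factor, had higher values, at 12.5, 13.2 and 10 FPKM in the WT libraries and 19.7, 23.9 and 26.6 in the deficient ones, with a log2 fold change of 0.92 (SE 0.154, limma adjusted p = 0.0647). Plod2, a lysyl hydroxylase of collagen, was at 2.54, 3.29 and 2.27 FPKM in the WT libraries and 5.51, 4.43 and 7.09 in the deficient ones, with a log2 fold change of 0.84 (SE 0.186, limma adjusted p = 0.119). So the hypoxia-induced genes outside the 38 lay on both sides of WT.

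Of 22 tested genes among 32 other genes of sugar metabolism and transport, 0 passed the threshold in limma, 6 were higher at an unadjusted p under 0.05 (9.29% of tested genes were) and 0 were lower (5.87%), and the median was 0.077 against 0.038. Slc2a6, which encodes the transporter GLUT6, was at 8.67, 6.04 and 6.301 FPKM in the WT libraries and 13.3, 12.97 and 15.4 in the deficient ones, with a log2 fold change of 0.91 (SE 0.152, limma adjusted p = 0.0647). Eno2, the neuronal enolase, was at 2.02, 1.07 and 2.06 FPKM in the WT libraries and 4.16, 4.23 and 4.502 in the deficient ones, with a log2 fold change of 0.99 (SE 0.1796, limma adjusted p = 0.0774). Galm, galactose mutarotase, was at 4.89, 6.03 and 4.89 FPKM in the WT libraries and 9.17, 7.84 and 7.36 in the deficient ones, with a log2 fold change of 0.54 (SE 0.126, limma adjusted p = 0.135). None of the 3 overlapped between groups, and all lay opposite to Slc2a1 and Slc2a3. Of 11 tested genes among 15 other regulators of HIF, 0 passed the threshold in limma, 0 had an unadjusted p under 0.05, and the median was -0.0036. Cited2, which competes with HIF-1α for a coactivator, was at 17.1, 16.3 and 15.8 FPKM in the WT libraries and 8.62, 14.9 and 14.5 in the deficient ones, with a log2 fold change of -0.39 (SE 0.208, limma adjusted p = 0.427). Fkbp8, a chaperone linked to PHD2 stability, was at 146, 127 and 134 FPKM in the WT libraries and 234, 139 and 133 in the deficient ones, and Rbx1, a RING subunit of the VHL ubiquitin ligase, at 30.6, 33.7 and 28.8 FPKM in the WT libraries and 25.3, 32.2 and 29.2 in the deficient ones. Both overlapped between groups, and the sign of Rbx1, -0.10, turned with sample weights (0.034).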

How the data were processed

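RNA of 6 samples of sorted aTreg, 3 WT and 3 BMPR1a-deficient, was sequenced. Per the submitters' processing notes the tools were TopHat2, Cufflinks and Cuffdiff and the genome build was GRCm38.p4; versions, annotation and strand handling were not given in the sources read. The authors deposited 1 table of FPKM per gene and library, with no counts. Depth was estimated from the smallest steps of FPKM times transcript length, and is approximate. It used 4166 genes within a set range of length whose longest transcript covers all their exon bases.

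Groups were taken from the sample labels. FPKM was transformed to log2(FPKM + 1), genes with a mean under 1 FPKM were left out, and BMPR1a-deficient was compared with WT in limma 3.58.1 (R 4.3.3; moderated test with trend, two-sided, Benjamini-Hochberg adjustment over 13413 genes, threshold 0.05). An exact permutation test of 3 against 3 cannot go below p = 0.1, so none is given per gene. On simulated data of 13413 genes for this comparison, 55% of genes changed by 1 on the log2 scale and 86% of those changed by 2 were recovered, and 5 of 146 calls were unchanged genes. The simulation used independent normal noise with no outlying library, and changed only genes above a minimum mean level. Its rates may therefore not hold for these data.

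Near-identical copies were found with blastn 2.17.0 (at least 95% identity over at least 200 bases, GENCODE transcripts, genes overlapping the same locus left out). Gene positions are from the GENCODE annotation of GRCm38 and promoter windows from RefSeq (GRCm38.p6), searched on both strands for the HIF core and the E-box.

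The text names all 38 genes. Of each further list it names every gene past the threshold and then those of smallest unadjusted p until 3 are named. Eno3, at the same step as Eno1, is named in addition and was added after its values were seen. Of marker lists it names those above 1 FPKM in every library. One marker gene is not reported here. The 38 genes and all lists were chosen with earlier results of these data known. Alternatives were other pseudocounts, filters, scalings and variance models, sample weights, a replicate block and leaving out each library. Summing near-identical copies, and counting non-overlapping genes under other settings, were added after seeing the data.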

Additional observations from a re-analysis of the deposited data

How the results depend on the processing

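With 3 libraries per group the counts of calls moved widely. Against 100 genes called higher and 43 lower over all tested genes (limma), sample weights gave 833 and 407, testing only genes above 0 in every library 166 and 69, the replicate block 5 and 5, and leaving out 1 library 10 to 134 and 4 to 76. A mean of at least 5 FPKM gave 27 lower, and quantile normalization 70 lower. Of the 38 genes, sample weights called 1 higher (Pfkfb3) and 7 lower (Slc2a1, Aldoa, Aldoc, Gapdh, Pdk1, Slc16a3 and Bnip3). Testing genes above 0 in every library called 2 lower, Pdk1 and Aldoc, and leaving out 1 library called 0 to 2 lower and 0 higher. Sample weights gave BMPR1a-deficient replicate 1 a weight of 0.117. The median over the 38 genes was -0.35 to -0.21 when 1 library was left out (-0.35 without WT replicate 1). Non-overlapping genes were 13 to 22 lower (12.8% to 15.6% of all tested genes) and 4 to 6 higher (18.4% to 28.1%) when 1 library was left out, and 2 higher (12.7%) with upper-quartile scaling. The replicate block changed no call among the 38 genes and ended that of Anxa2 (limma adjusted p = 0.141). Libraries with the same number correlated in their deviations from the group means at 0.0103, 0.0645 and 0.0518. Those with unlike numbers ran from -0.0935 to 0.0412, the highest being WT replicate 1 with BMPR1a-deficient replicate 3. Such weak correlations cannot show whether libraries with the same number were paired.

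Of 680 alternative results for the 38 genes, 652 kept their direction and side of the threshold, 12 gained a call and 16 changed sign. The sign changed for Pgam1 (0.036) and Arnt (0.088) with sample weights, Ldha (0.10) and Ldhb (-0.021) with quantile normalization, and Ldhb (-0.033) and Myc (-0.013) with upper-quartile scaling. Rbx1, outside the 38, was at 0.034 with sample weights. Leaving out 1 library gave -0.25 to 0.090 for Hk2, -0.15 to 0.074 for Pgam1, -0.098 to 0.17 for Ldhb, -0.14 to 0.078 for Arnt and -0.13 to 0.30 for Myc. The cause was not tested. Depth limits mainly Vegfa, Ankrd37 and Aldoc, whose lowest libraries rest on about 50, 93 and 120 fragments.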

Other observations

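Of 13 tested genes of the pyruvate dehydrogenase complex and of pyruvate import, 0 passed the threshold in limma, 0 had an unadjusted p under 0.05, and the median log2 fold change was 0.025. Pdp1, the phosphatase that reverses the action of the kinases, was at 3.21, 3.83 and 3.84 FPKM in the WT libraries and 4.104, 4.33 and 4.82 in the deficient ones, with a log2 fold change of 0.23 (SE 0.112, limma adjusted p = 0.391) and no overlap. Pdk3, another kinase of the family, was at 18.3, 19.98 and 17.9 FPKM in the WT libraries and 19.1, 22.8 and 22.4 in the deficient ones, and the pyruvate carrier subunit Mpc2 at 35.1, 27.4 and 29.4 FPKM in the WT libraries and 40.9, 33.6 and 33.9 in the deficient ones. Both overlapped between groups. Of 8 genes of the pentose phosphate pathway, which branches from glycolysis at glucose 6-phosphate, 0 passed the threshold in limma, 0 had an unadjusted p under 0.05, and the median was 0.081. Pgls, 6-phosphogluconolactonase, was at 56.02, 48.6 and 50.5 FPKM in the WT libraries and 106, 62.6 and 61.8 in the deficient ones. Its groups did not overlap, with BMPR1a-deficient replicate 1 far above the others. Transketolase Tkt was at 97.9, 118 and 93.7 FPKM in the WT libraries and 149.9, 106 and 106 in the deficient ones and Rpia, ribose 5-phosphate isomerase, at 16.9, 23.6 and 20.6 FPKM in the WT libraries and 26.3, 20.4 and 21.8 in the deficient ones, and both overlapped.

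Of 16 tested genes of the Myc and Mondo network, 0 passed the threshold in limma, 2 were higher at an unadjusted p under 0.05 (9.29% of tested genes were), and the median was 0.15. Cad, which encodes the enzyme that starts pyrimidine synthesis and is a known Myc target, was at 9.59, 15.01 and 11.05 FPKM in the WT libraries and 19.2, 16.2 and 17.4 in the deficient ones, with a log2 fold change of 0.55 (SE 0.1705, limma adjusted p = 0.2303). Mxd4, a Myc antagonist, was at 104, 70.4 and 84.5 FPKM in the WT libraries and 145, 117 and 117 in the deficient ones, with a log2 fold change of 0.56 (SE 0.178, limma adjusted p = 0.243). Mxd3, of the same family, was at 34.2, 20.8 and 20 FPKM in the WT libraries and 63.2, 33.5 and 32.3 in the deficient ones and overlapped. Of 22 tested genes of mTOR and AMPK signalling, 0 passed the threshold in limma, 1 was lower at an unadjusted p under 0.05 (5.87% of tested genes were), and the median was 0.025. Pik3ip1, an inhibitor of phosphoinositide 3-kinase, was at 101, 87.4 and 103 FPKM in the WT libraries and 53.03, 78.1 and 63.3 in the deficient ones, with a log2 fold change of -0.59 (SE 0.165, limma adjusted p = 0.191). Rheb, the GTPase that activates mTORC1, was at 32.6, 34.7 and 34.9 FPKM in the WT libraries and 44.01, 39.2 and 37.8 in the deficient ones, and Rictor, a subunit of mTORC2, at 9.59, 9.54 and 11.5 FPKM in the WT libraries and 5.94, 8.17 and 8.89 in the deficient ones. Neither overlapped between groups, Rheb on the higher and Rictor on the lower side.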
